A study of Mus musculus with 8 samples.

Results

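The genes of 5 families that recognise splice sites or steer their choice were followed in mouse LSK cells, the bone marrow fraction without lineage markers and with Sca-1 and c-Kit on the surface. They were taken by gene symbol, a choice made with earlier results of these data known: 52 of the 54532 genes in the deposited table. These were 11 SR protein genes (Srsf), 20 hnRNP genes, 9 genes of the SF3A and SF3B complexes, 5 genes of the U2AF and ZRSR family and 7 genes of the CLK and SRPK kinases. Pseudogenes named after a member were left out. RNA-seq libraries, labelled mRNA, came from 3 AML1/ETO samples, genotype Runx1-Runx1t1, and from 5 wild-type control samples, all C57BL/6. Every mouse, controls included, had been given poly(I:C), 5 mg/kg in 4 injections, and cells were sorted after 4 weeks. The sources used here do not say which promoter or Cre line drives the fusion, how old the mice were or whether each library is a separate animal. A p-value then reflects only how far these samples spread, which may be technical.

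Pre-mRNA splicing starts when U1 and U2 particles find the ends of an intron. U2AF2 binds the pyrimidine tract and U2AF1 the AG at the 3′ splice site; ZRSR2 does the corresponding work on the rare minor introns; SF3A and SF3B then hold the U2 particle on the branch point. SR proteins bind exonic enhancers and favour inclusion of an exon, hnRNPs often oppose them or coat the transcript, and CLK and SRPK kinases phosphorylate the serines of SR proteins, which sets where in the cell these proteins sit and whether they act. SF3B1, SRSF2, U2AF1 and ZRSR2 are recurrently mutated in human myelodysplasia and leukaemia. Many SR and CLK genes limit their own output through introns that are kept or exons that send the transcript to decay.

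Libraries held 14693080 to 17527043 counted reads, of which the 52 genes took 1.71% to 2.06%. Runx1t1, the ETO part of the fusion, separated the labels, at 53.9 to 123 CPM (read counts scaled to library size with TMM factors) in AML1/ETO and 1.58 to 7.69 CPM in control. Kit, of the sort gate, was at 1386 against 431 CPM, and Ly6a (Sca-1) at 466 against 14.99 CPM, although both populations were sorted on Sca-1. Of genes expected at 20 to 50 reads, 41.4% to 51.1% had no read in libraries of AML1/ETO and 46.2% in control library 1, against 10.5% to 27.0% in the other controls. The groups also differed in sex-linked RNA: Xist had 28559 to 33151 reads in AML1/ETO and 0 to 111 in control, and Ddx3y 0 against 3688 to 5038. Genotype and these markers cannot be told apart. Of 12 genes of dividing cells 10 fell and none rose, and their summed level was 884 to 1471 CPM against 2446 to 2802 CPM. Of 8 tested mast cell and basophil genes 6 rose and 1 fell, with sums of 2517 to 6878 CPM against 35.2 to 93.9 CPM. The part of these markers in the results on splicing factors was not tested. In RNA from a whole sorted population, fewer cells of a type and less RNA per cell cannot be told apart.

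In AML1/ETO LSK cells 4 of the 6 tested kinases of SR proteins and a few SR genes were higher, and several hnRNP and SF3 genes were lower. Of the 52 genes 50 passed the filter on low counts. Among these 8 rose (16%) and 9 fell (18%) at an adjusted p under 0.05 (edgeR quasi-likelihood, Benjamini-Hochberg over all 15009 genes tested). Over all tested genes 11.6% rose and 14.2% fell, 25.7% in all. Among the 7576 genes that averaged at least 20 CPM, to which all but 2 of the 50 belong, 18.6% rose and 20.3% fell, 38.9% in all. The share called among the splicing factors, 34.0%, was therefore near that of other abundant genes. Of the 17 called members 6 exceeded 2-fold. Called or not, 14% of the 50 changed more than 2-fold, against 38.5% of all tested genes and 24.7% of the abundant ones. The median log2 fold change of the 50 was −0.18 against −0.09 for all tested genes. Every AML1/ETO library was above every control in 10 members (20%), against 14.1% of all tested genes and 19.4% of the abundant ones, and below in 16 (32%), against 17.5% and 23.4%. The calls fell differently among the subgroups, a difference that was not tested. Risers were 4 of 6 tested kinases, 3 of 11 SR genes and 1 of 4 U2AF and ZRSR genes. Those that fell were 5 of 20 hnRNP genes, 3 of 9 SF3 genes and 1 SR gene. The hnRNP count depends on the scaling and on single libraries: it was 2 with DESeq2 size factors, 10 with library totals alone, 2 without a filter on low counts and 2 to 6 with 1 library left out. Among the fits with 1 library left out it was lowest, at 2, without AML1/ETO library 3 or control library 2, 3 or 5. With the replicate number as a block it was 0. The SF3 count was 2 to 4 over the alternatives and that of rising kinases 4 or 5. The fall of the SR gene, Srsf10, was lost in 14 of 16. No kinase fell and no hnRNP or SF3 gene rose in this test. Scaling moves the balance: risers were 47.1% of the called members here, 71.4% with DESeq2 size factors and 29.2% with library totals alone. They move the all-gene median by 0.07 and −0.15 on the log2 scale.

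**Figure D1:**
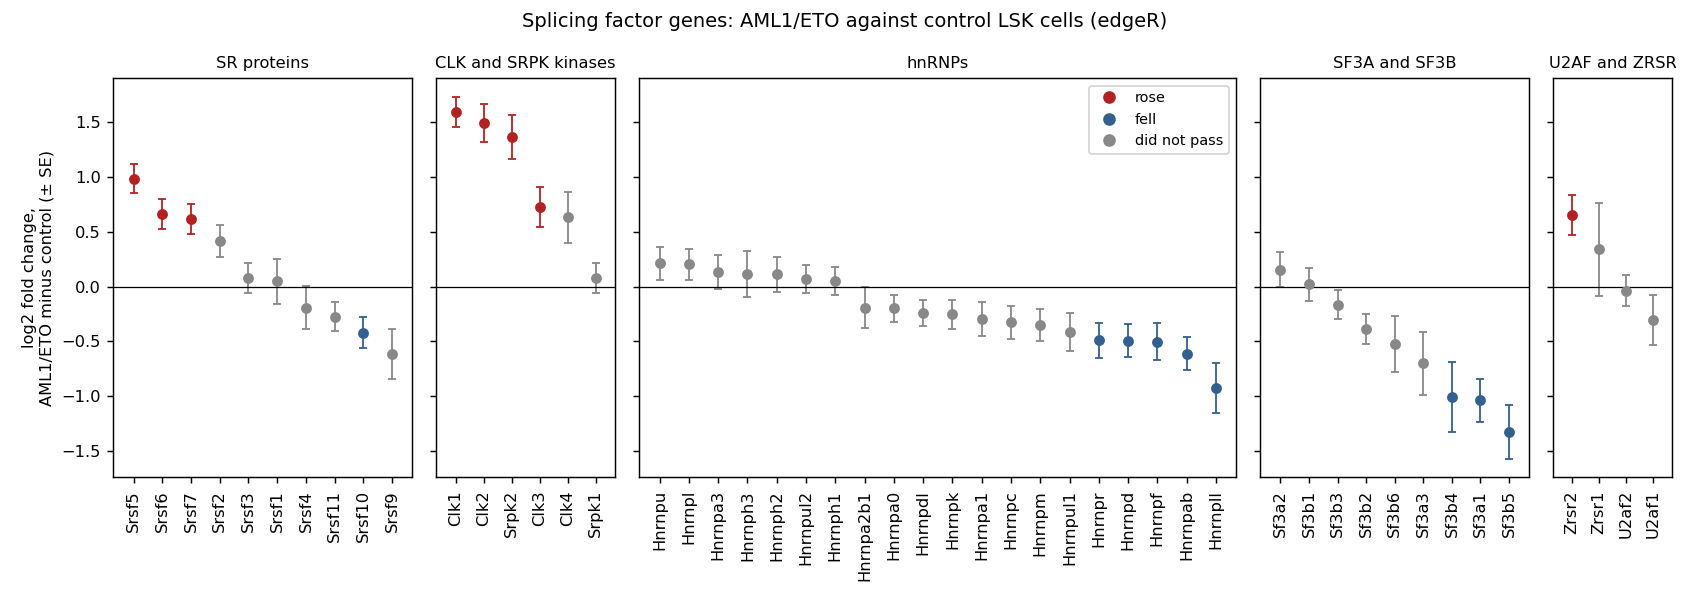
Log2 fold change (AML1/ETO minus control) with its standard error for 49 tested genes by subgroup; Srsf12, without a read in AML1/ETO, is left out. Red points rose, blue fell and grey did not pass; all 6 kinases lie above 0 (Srpk1 is at −0.071 with library totals alone), and the SF3 panel reaches −1.33.

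Because members moved in opposite directions, the promoter of 1 called gene per subgroup is shown: the largest change with a promoter window in RefSeq (GRCm38.p6, the assembly of mm10). These are the 250 bases before the start site, read 5′ to 3′ on the gene's strand. Capitals mark GC boxes, the string GGGCGG on either strand, that lie wholly within these bases. A further GC box of Zrsr2, with its first base at −4, crosses the start site and is not marked. The windows are chr12:80945249-80945498 (plus strand) for Srsf5, chr3:89164545-89164794 (plus) for Clk2, chr11:51606882-51607131 (minus) for Hnrnpab, chr11:4160104-4160353 (plus) for Sf3a1 and chrX:163958667-163958916 (minus) for Zrsr2.
Srsf5: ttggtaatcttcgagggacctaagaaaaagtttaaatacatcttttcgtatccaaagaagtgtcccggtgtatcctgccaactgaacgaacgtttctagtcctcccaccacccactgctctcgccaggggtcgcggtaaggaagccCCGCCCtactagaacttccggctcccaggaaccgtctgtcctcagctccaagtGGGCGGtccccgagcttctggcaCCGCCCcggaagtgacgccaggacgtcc
Clk2: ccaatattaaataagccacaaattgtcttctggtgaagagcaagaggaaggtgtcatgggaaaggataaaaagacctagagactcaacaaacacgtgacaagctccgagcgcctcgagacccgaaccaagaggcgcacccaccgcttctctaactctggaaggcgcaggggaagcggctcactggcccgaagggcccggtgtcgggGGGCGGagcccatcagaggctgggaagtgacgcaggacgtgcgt
Hnrnpab: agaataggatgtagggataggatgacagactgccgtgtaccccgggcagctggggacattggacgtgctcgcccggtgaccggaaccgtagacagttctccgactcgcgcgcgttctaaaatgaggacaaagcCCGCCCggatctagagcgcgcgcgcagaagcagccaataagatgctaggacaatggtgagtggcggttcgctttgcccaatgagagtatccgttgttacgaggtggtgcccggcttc
Sf3a1: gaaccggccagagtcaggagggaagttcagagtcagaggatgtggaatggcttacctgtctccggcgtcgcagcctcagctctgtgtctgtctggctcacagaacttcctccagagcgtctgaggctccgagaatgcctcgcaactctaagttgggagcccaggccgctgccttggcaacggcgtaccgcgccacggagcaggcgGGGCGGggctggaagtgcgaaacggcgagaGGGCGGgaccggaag
Zrsr2: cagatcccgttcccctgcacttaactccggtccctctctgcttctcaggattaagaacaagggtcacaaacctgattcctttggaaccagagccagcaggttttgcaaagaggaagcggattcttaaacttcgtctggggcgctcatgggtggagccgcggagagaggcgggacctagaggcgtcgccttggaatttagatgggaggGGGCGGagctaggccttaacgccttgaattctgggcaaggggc
Srsf5, Clk2 and Zrsr2 rose and Hnrnpab and Sf3a1 fell, yet all 5 windows hold at least 1 GC box. A window of 300 bases was found for 46 of the 52 genes, and 36 of these 46 had a GC box in it, against 38.2% of all genes with a window. All genes here means 27025 genes, whether or not they passed the filter on low counts, which nearly all members did. The string was present in 7 of 7 risers and in 6 of 6 genes that fell for which a window was found. The windows of the members were also richer in G and C, with a median of 64.2% against 52.7% over all windows. The RUNX core strings TGTGGT or TGCGGT, on either strand, were in 10 of 46 genes, 1 of 7 risers and 2 of 6 that fell, against 25.0% of all genes. The cyclic AMP response string TGACGTCA was in 1 of 46, Clk4, which did not pass the test, against 2.03% of all genes. The AP-1 string TGAGTCA was in 1 of 46, Hnrnpa1, against 5.95% of all genes. The ETS string CCGGAAG was in 13 of 46 genes, 3 of 7 risers and 3 of 6 that fell, against 9.93% of all genes. CCAAT was in 22 of 46, 2 of 7 risers and 4 of 6 that fell, against 41.1%. The E-box string CACGTG was in 6 of 46, 1 of 7 risers and 2 of 6 that fell, against 8.09%. None of these differences was tested. A match of letters is a description of these windows and not a binding site.

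Clk1, Clk2 and Srpk2 gave the largest rises of the members. Clk1 (ENSMUSG00000026034, chr1:58410189-58424066, minus strand) encodes a dual-specificity kinase of nuclear speckles. It stood at 997, 850 and 841 CPM in AML1/ETO libraries 1 to 3 and at 338, 332, 267, 267 and 283 CPM in control libraries 1 to 5. The lowest AML1/ETO library was far above the highest control. The mean of 896 ± 87.8 CPM (SD, n = 3) against 297 ± 35.1 CPM (SD, n = 5) was a 3.01-fold rise (adjusted p = 1.36e-05, log2 change 1.59 ± 0.14 SE). Clk2 (ENSMUSG00000068917, chr3:89164795-89176921, plus strand) is its close relative, with the promoter shown above. It stood at 239, 173 and 242 CPM in AML1/ETO and at 60.4, 83.5, 89.6, 78.9 and 74.7 CPM in control, without overlap. This was a 2.81-fold rise (adjusted p = 0.000111, log2 change 1.49 ± 0.18 SE).

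Srpk2, a kinase that acts mainly in the cytoplasm and sends SR proteins to the nucleus, had a like rise. It stood at 147, 115 and 128 CPM in AML1/ETO and at 36.0, 58.4, 46.7, 63.5 and 48.1 CPM in control. The lowest AML1/ETO value was well above the highest control, and the rise was 2.57-fold (adjusted p = 0.000494, log2 change 1.36 ± 0.20 SE). Clk3 rose 1.65-fold, from 108 ± 22.0 to 179 ± 11.8 CPM, with every AML1/ETO library (171 to 193 CPM) above every control (83.8 to 133.5 CPM; adjusted p = 0.0119, log2 change 0.73 ± 0.18 SE). Exons of Clk3 overlap Edc3 over 15.2% of their length and those of Srpk2 overlap Kmt2e over 6.99%, both on the other strand. Edc3 had 890 to 1076 reads in AML1/ETO and 924 to 1400 in control, and Kmt2e 2735 to 4889 against 4649 to 7173.

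Clk4 was at 159, 133 and 174 CPM in AML1/ETO and at 55.2, 109, 106, 101 and 130.4 CPM in control. All 3 AML1/ETO libraries were above the controls, but the second by a few CPM, and the difference did not pass (adjusted p = 0.0703, log2 change 0.63 ± 0.24 SE). It passed with DESeq2 (0.0245), with DESeq2 size factors (0.0437) and without control library 1 (0.0477) or control library 5 (0.0481); its highest adjusted p was 0.204. Srpk1, the other broadly expressed SRPK, was at 252 to 271 CPM in AML1/ETO and at 219 to 287 CPM in control, so that its groups overlapped (adjusted p = 0.754, log2 change 0.08 ± 0.14 SE). Within a library, where no scaling enters, Clk1 had 3.15 to 3.69 reads for each read of Srpk1 in AML1/ETO and 1.03 to 1.43 in control. This pair was chosen after the values were seen. Srpk3, a muscle kinase, had 54 reads in AML1/ETO library 1 and 27 in control library 2 and was not tested.

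**Figure D2:**
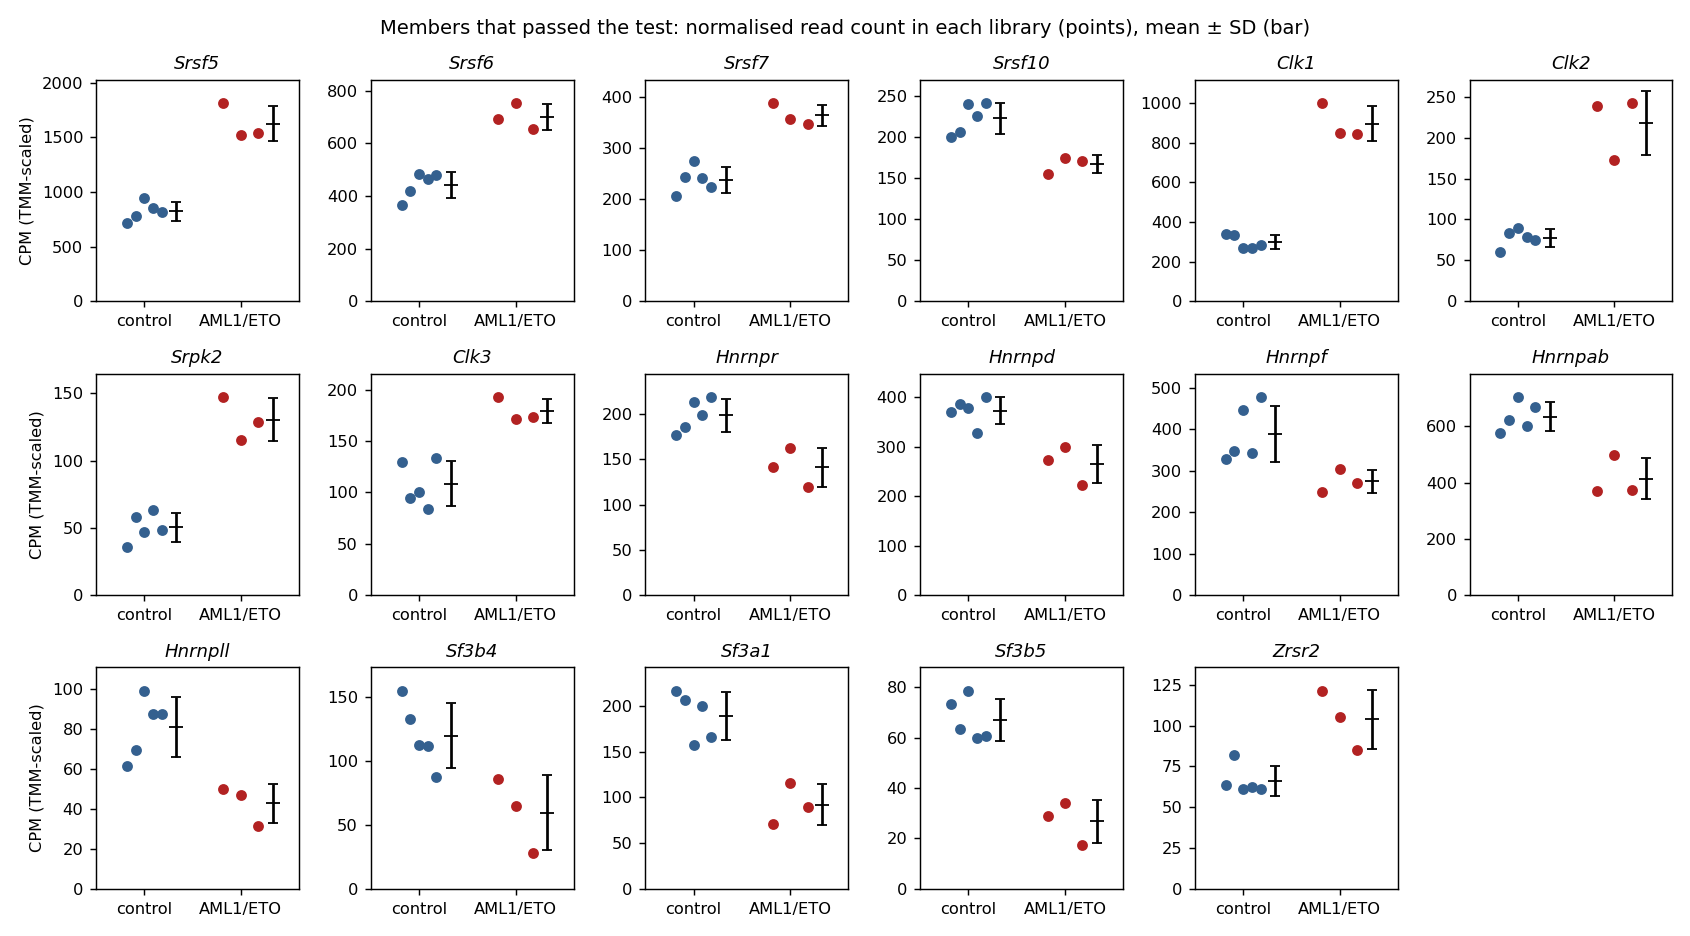
Normalised read count (CPM, axes from 0) of the 17 members that passed, one point per library (5 control, blue; 3 AML1/ETO, red), with the mean and SD. In all 17 panels no AML1/ETO point reaches the range of the control points. Each panel has its own axis. Counted in CPM, the gap is widest for Clk1 and Srsf5 and narrow for Sf3b4, at 86.5 against 87.6 CPM.

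The SR genes split. Srsf5 (ENSMUSG00000021134, chr12:80945504-80950507, plus strand), an abundant SR protein, stood at 1810, 1525 and 1540 CPM in AML1/ETO. In control it stood at 716, 779, 941, 858 and 818 CPM, so the groups lay well apart. It rose 1.98-fold (adjusted p = 0.000259, log2 change 0.98 ± 0.13 SE). Srsf6, a larger SR protein with a pair of RNA recognition motifs, stood at 692, 752 and 653 CPM against 365, 418, 485, 464 and 479 CPM. It rose 1.58-fold (log2 fold change 0.66, adjusted p = 0.00439). Srsf7, an SR protein with a zinc knuckle, stood at 388, 359 and 349 CPM against 207, 243, 275, 242 and 224 CPM and rose 1.53-fold (adjusted p = 0.00660). In each of these 3 genes the groups did not overlap.

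Srsf2, which binds exonic enhancers and is a mutation target in myeloid disease, was at 492, 381 and 449 CPM in AML1/ETO and at 305, 321, 360, 291 and 374 CPM in control. The groups did not overlap, but the second AML1/ETO library exceeded the fifth control by only a few CPM, and the adjusted p was 0.0556 (log2 fold change 0.42, SE 0.15). It passed with DESeq2 (0.00519), with DESeq2 size factors (0.0312), with a 1 CPM filter (0.0382) and without AML1/ETO library 2 (0.0408) or control library 5 (0.0462); its highest adjusted p was 0.191. Its exons overlap those of Mettl23 and Mfsd11 on the other strand over 15.6% and 9.74% of their length, and no source used here gives the strand setting of the counting. Srsf10, which represses splicing when dephosphorylated, was at 154, 175 and 171 CPM against 200, 206, 240.2, 226 and 240.5 CPM. It fell by 0.42 on the log2 scale, just inside the threshold (adjusted p = 0.0480), and 14 of 16 alternatives lost the call, each single library left out among them.

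The founding family members Srsf1 and Srsf3 differed by less than their spread. Srsf1, the splicing factor known as ASF/SF2, ran from 205 to 392 CPM in AML1/ETO and from 241 to 333 CPM in control. Srsf3 was at 664 ± 18.5 against 628 ± 76.5 CPM (log2 fold change 0.08, adjusted p = 0.742). Srsf11 (log2 fold change −0.28, adjusted p = 0.144) and Srsf9 (−0.61, adjusted p = 0.0712) had every AML1/ETO library below the controls without passing. Srsf12 was without a read in AML1/ETO and had 131 reads over 4 of the 5 controls, 72 of them in control library 1. At a floor of 3 reads per library it was at least 7.49-fold lower, or 4.18-fold without control library 1, but did not pass (adjusted p = 0.0663). It passed with DESeq2 (0.0140) and without control library 5 (0.0404); its highest adjusted p was 0.352. Shares of genes at 0 in these libraries, given above, limit what such a zero shows.

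Summed over its 11 genes, the SR family stood at 5068, 4776 and 4613 CPM in AML1/ETO and at 3242 to 3973 CPM in control, mostly through Srsf5 and Srsf6. The 7 kinases together stood at 2009, 1694 and 1825 CPM against 828 to 966 CPM. Both sums lay apart between the groups. The hnRNP sum overlapped, at 9842, 10920 and 9657 CPM against 10116 to 12266 CPM, as did the sum of U2AF and ZRSR genes. The SF3 sum was 2020, 1858 and 1661 CPM in AML1/ETO and 2061 to 2267 CPM in control, apart by a small margin. The 52 genes as a whole were at 19196 ± 877 CPM in AML1/ETO and 18677 ± 1184 CPM in control, within the spread.

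**Figure D3:**
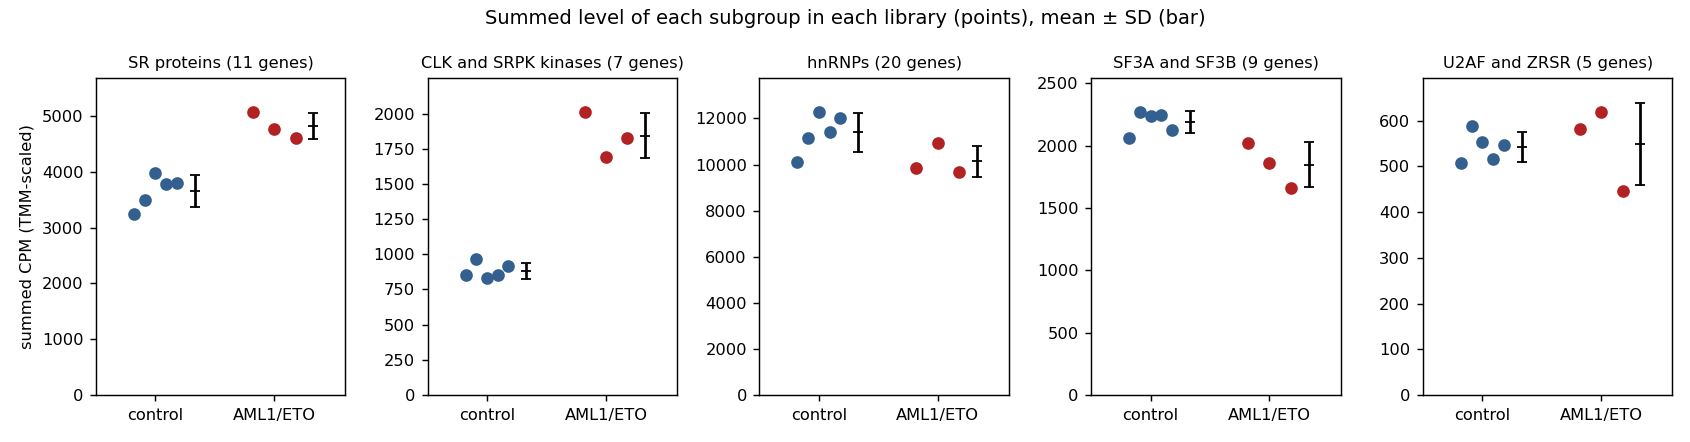
Summed normalised read count (CPM, axes from 0) of each subgroup in each library, with the mean and SD (5 control, blue; 3 AML1/ETO, red). The kinase sums sit at 1694 to 2009 CPM in AML1/ETO and at 828 to 966 CPM in control, while the hnRNP sums overlap.

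Among the hnRNPs 8 of 20 had every AML1/ETO library below every control (40.0%, against 17.5% of all tested genes and 23.4% of those at 20 CPM or more), and 5 of these 8 passed. Hnrnpll, a regulator of CD45 splicing in lymphocytes, changed most. It stood at 49.9, 47.0 and 31.4 CPM in AML1/ETO and at 61.3, 69.7, 98.9, 87.5 and 87.7 CPM in control, and fell 1.89-fold (adjusted p = 0.0117, log2 change −0.92 ± 0.23 SE). Hnrnpab (ENSMUSG00000020358, chr11:51600100-51606847, minus strand), an abundant relative of AUF1, stood at 370.2, 498 and 374 CPM against 576, 621, 703, 600 and 668 CPM. All 3 AML1/ETO libraries were under the lowest control, and it fell 1.53-fold (adjusted p = 0.0104, log2 change −0.61 ± 0.15 SE). Its exons overlap Phykpl on the other strand over 29.1% of their length, and Phykpl had 819 to 1175 reads in AML1/ETO and 454 to 826 in control.

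Hnrnpd (AUF1, which binds AU-rich elements), Hnrnpf (a binder of G tracts) and Hnrnpr fell 1.41-, 1.42- and 1.41-fold, with adjusted p of 0.0286, 0.0476 and 0.0387. Hnrnpd stood at 273, 300 and 222 CPM against 371, 385, 378, 328 and 400 CPM. Their calls lie near the threshold: 8, 12 and 10 of 16 alternatives lost them, with highest adjusted p of 0.113, 0.162 and 0.207. Each was lost without AML1/ETO library 3, control library 2, 3 or 5. Of the 75-base stretches in Hnrnpf transcripts, 56.0% recur in 10 other annotated genes, so its count depends on how reads with several alignments were treated.

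Of the hnRNPs with the most reads, Hnrnph1, Hnrnpa1 and Hnrnpa2b1 did not pass. Hnrnpa1, which antagonises SR proteins at exonic silencers, was at 875, 1356 and 1119 CPM against 1202, 1320, 1469, 1428 and 1445 CPM (log2 fold change −0.30, adjusted p = 0.184), and only AML1/ETO library 2 reached the controls. Hnrnpa2b1 had the same order of libraries, at 771, 1300 and 1043 CPM against 913 to 1428 CPM. Hnrnph1 was the most counted member, at 1569 to 1936 CPM against 1464 to 1799 CPM (log2 fold change 0.05, adjusted p = 0.839). Hnrnpk, Hnrnpu, Hnrnpl and the remaining hnRNPs that did not pass had log2 fold changes from −0.41 to 0.21. For Hnrnpa1 and Hnrnpa3, 27.0% and 26.1% of 75-base stretches recur in other genes. The processed copy Gm10052 alone, the one that shares most with Hnrnpa1, had 602 to 920 reads in AML1/ETO and 993 to 1442 in control.

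Of the Sf3a and Sf3b genes, 3 of 9 fell and the largest SF3B subunit, Sf3b1, did not pass. Sf3a1 (ENSMUSG00000002129, chr11:4160350-4182541, plus strand) encodes the largest SF3A subunit. It stood at 71.1, 116 and 89.7 CPM in AML1/ETO and at 216, 206, 157, 200.5 and 166 CPM in control. The highest AML1/ETO library was under the lowest control, and it fell 2.05-fold (adjusted p = 0.00241, log2 change −1.04 ± 0.20 SE). Sf3b5, the smallest SF3B subunit, stood at 28.7, 33.9 and 17.5 CPM against 73.2, 63.2, 78.4, 59.7 and 60.6 CPM. Its groups were further apart, with a 2.51-fold fall (adjusted p = 0.00220, log2 change −1.33 ± 0.25 SE). Sf3b4, which contacts the RNA upstream of the branch point, stood at 86.5, 64.6 and 28.1 CPM against 155, 133, 113, 112 and 87.6 CPM. It fell 2.01-fold (adjusted p = 0.0364, log2 change −1.01 ± 0.32 SE) and varied most within AML1/ETO, with a coefficient of variation of 49.3%, and 7 of 16 alternatives lost the call. These were DESeq2 size factors and 6 of the 8 fits without 1 library (all but AML1/ETO library 1 and control library 5), with a highest adjusted p of 0.0862. In Sf3b4, 38.6% of 75-base stretches recur in other genes, mainly the pseudogene Gm7935, which had 2 to 58 reads in AML1/ETO and 5 to 38 in control.

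Sf3b1, which grips the branch-point helix, was at 1168, 873 and 806 CPM against 800, 987, 968, 993 and 933 CPM. AML1/ETO library 1 was above every control and the other two lay within their range (adjusted p = 0.952, log2 change 0.02 ± 0.15 SE). Within a library, Sf3a1 had 0.0609, 0.133 and 0.111 reads for each read of Sf3b1 in AML1/ETO and 0.163 to 0.270 in control, a pair chosen after its values were seen. Sf3a3 and Sf3b6 had log2 fold changes of −0.70 (adjusted p = 0.0967) and −0.52 (adjusted p = 0.155). AML1/ETO library 1 was lowest in both, at 27.0 CPM for Sf3a3 against 68.2 and 56.0 CPM in the other two. Sf3b2 (−0.38, adjusted p = 0.0574) had all 3 AML1/ETO libraries below the controls without passing. Sf3b3 and Sf3a2 had log2 fold changes of −0.16 and 0.15.

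Of the genes that read the 3′ splice site, 1 passed. Zrsr2 (ENSMUSG00000031370, chrX:163935443-163958661, minus strand) stood at 121, 105 and 85.2 CPM in AML1/ETO and at 63.4, 82.3, 61.3, 62.6 and 61.2 CPM in control. The groups came closest between AML1/ETO library 3 and control library 2 but did not overlap, and it rose 1.57-fold (adjusted p = 0.0207, log2 change 0.65 ± 0.18 SE). Of 16 alternatives 6 lost the call, among them the fits without AML1/ETO library 1 (adjusted p = 0.0702), without AML1/ETO library 2 (0.0517) and without both first libraries (0.0905). Zrsr2 is on the X chromosome, and the groups differ in Xist, so genotype and sex-linked dosage cannot be told apart for it. Zrsr1, an intronless relative inside Commd1, was low and overlapped, at 11.1 to 21.2 CPM against 6.73 to 20.7 CPM (log2 fold change 0.34, adjusted p = 0.632).

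U2af1 was at 116, 144 and 79.5 CPM in AML1/ETO and at 93.8, 161, 149, 146 and 149 CPM in control, with overlap through control library 1 (adjusted p = 0.374, log2 change −0.30 ± 0.23 SE). Its partner U2af2 was at 314 ± 48.5 against 322 ± 16.4 CPM (log2 fold change −0.04, adjusted p = 0.899). U2af1l4, found in control library 2 alone with 37 reads, was not tested.

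Levels can be compared between genes only per length, here as CPM per kb of annotated exon. In control, Hnrnpa1 was highest at 435 ± 35.3, followed by Hnrnpa0 (325 ± 20.3), Hnrnph1 (286 ± 22.0), Hnrnpab (228 ± 18.6) and Srsf5 (206 ± 21.2), of which Hnrnpab and Srsf5 differ by about their SD. In AML1/ETO, Srsf5 came first at 407 ± 40.1, above Hnrnpa1 at 354 ± 76.3, a gap within the spread of Hnrnpa1. Clk1 moved from rank 29 of 52 to rank 10, at 36.5 ± 4.32 and 110.2 ± 10.8, and Clk2 from rank 43 to 25. Sf3a1 moved from rank 32 to 43 and Sf3b5 from 41 to 46. Exonic length counts every annotated exon, also those of retained introns, so the value is low for genes with many of them.

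**Figure D4:**
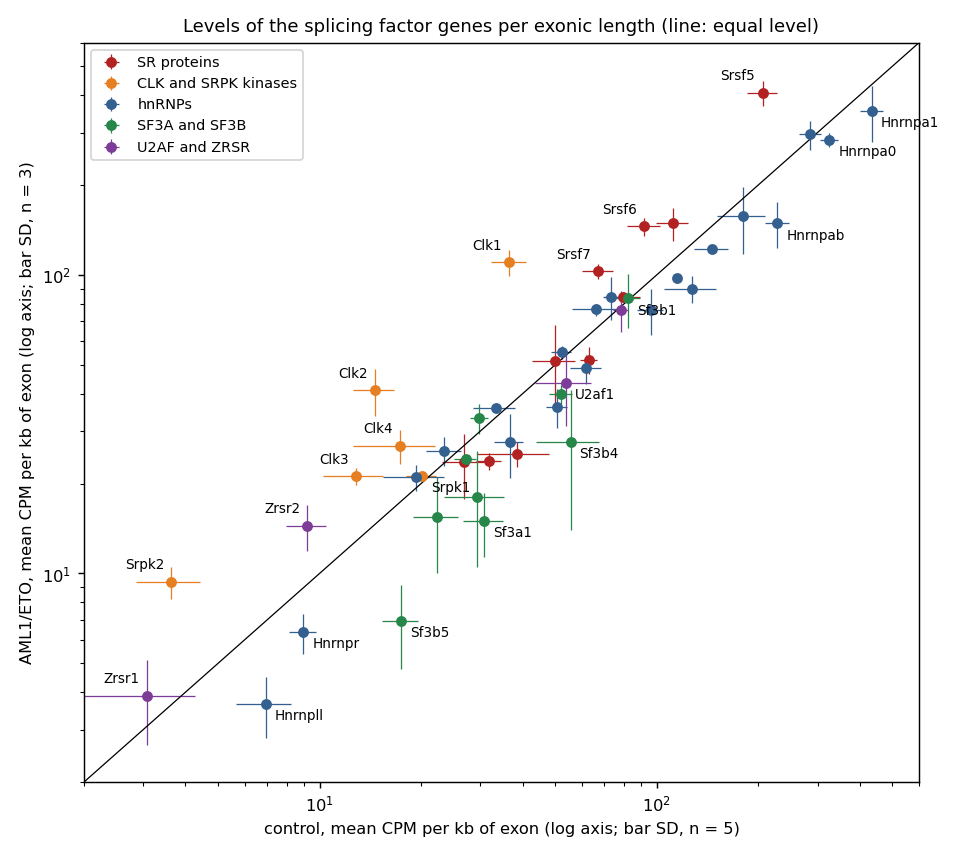
Mean CPM per kb of annotated exon in AML1/ETO against control (log axes, bars SD, n = 3 and n = 5) for the 49 tested members with reads in AML1/ETO; the line marks equal levels. Clk1, Clk2, Srpk2 and Srsf5 lie farthest above the line, and Sf3b5, Sf3a1, Sf3b4 and Hnrnpll farthest below.

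Counts per gene add all its transcripts, productive or not. In GENCODE M21 all 8 risers have a transcript annotated with a retained intron and 7 of 8 one annotated for nonsense-mediated decay. Of the 9 that fell, 5 have the former and 3 the latter. The shares were 76% and 56% over all 50 tested members, and 59.2% and 29.0% over all tested protein-coding genes. These sets also differ in their median number of annotated transcripts. It was 9.5 for the risers, 7 for those that fell, 8 for the tested members and 5 for all tested protein-coding genes. Among the 6 tested kinases all have both classes, and Clk1 has 7 retained-intron transcripts among 13 with 1 annotated as protein-coding. Srsf10, Hnrnpf, Hnrnpab and Sf3b5, the other 4 that fell, have neither class. Which transcripts gave the added reads of Clk1, Clk2 or Srsf5 cannot be read from these counts. These shares were computed after the calls were known and describe the annotation.

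Within groups the median coefficient of variation was 12.3% over the AML1/ETO libraries and 11.6% over the controls, for the 49 tested members with reads in both groups. It was not compared with that of other genes at like counts. Sf3b4 (49.3%), Sf3a3 (42.0%) and Sf3b6 (35.4%) varied most in AML1/ETO. AML1/ETO library 3 was the lowest of its group for 21 of 49 members and the highest for 4, while libraries 1 and 2 were highest for 22 and 23.

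Other spliceosome genes were counted from lists chosen by their role, with earlier results of these data known. Of 35 tested proteins of the snRNP particles 15 fell and none rose, with a median log2 fold change of −0.67 against −0.09 for all tested genes. The share that fell was 42.9%, against 14.2% of all tested genes and 20.3% of those averaging at least 20 CPM. Prpf8, the U5 protein at the catalytic centre, fell to 371 from 678 CPM (log2 fold change −0.87, adjusted p = 0.00196). Snrnp200, the helicase that unwinds U4 from U6, fell to 169 from 268 CPM (−0.67), Usp39 to 34.8 from 94.6 CPM (−1.44) and Lsm7 to 10.3 from 33.3 CPM (−1.70). Of 33 assembly factors, Prp19 complex proteins and helicases 12 fell (36.4%) and 3 rose (9.09%), with a median of −0.43. Over all tested genes 11.6% rose, and 18.6% of those averaging at least 20 CPM. Prpf19, the ubiquitin ligase of the Prp19 complex, fell to 161 from 314 CPM (adjusted p = 0.00155), as did Prpf18 (log2 fold change −1.28) and Cwc15 (−1.32).

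Of 40 other splicing regulators 6 rose and 6 fell, 15% each way, with a median of −0.11. These shares were near the 11.6% and 14.2% of all tested genes and below the 18.6% and 20.3% of those averaging at least 20 CPM. The SR-like activator Tra2a rose to 412 from 157 CPM (adjusted p = 7.9e-05, log2 change 1.40 ± 0.16 SE). Rbm5 rose to 392 from 207 CPM (log2 fold change 0.92). Khdrbs1 (Sam68) and Syncrip, an hnRNP by its other name hnRNP Q, fell (−0.74 and −0.84). Of 17 exon junction and nonsense-mediated decay genes 5 fell and none rose (median −0.38). The share that fell was 29.4%, against 14.2% of all tested genes and 20.3% of those averaging at least 20 CPM. Among the 5 were Smg8 (−1.31), Rbm8a (−0.72), Smg5 (−0.70) and Eif4a3 (−0.53). These falls stand beside the lower sum of dividing-cell genes given above, whose part was not tested.

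Calls differed in how firmly they stood. Of the 17, 8 kept their call in all 16 alternatives: Clk1, Clk2, Clk3, Srpk2, Srsf5, Srsf6, Sf3a1 and Sf3b5. Without both first libraries, which include the control with many zeros, 7 members rose and 8 fell, and 14 of the 17 calls were among these 15. Without control library 2, 3 or 4 or AML1/ETO library 3, the number that fell was 4, 4, 5 and 4.

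**Figure D5:**
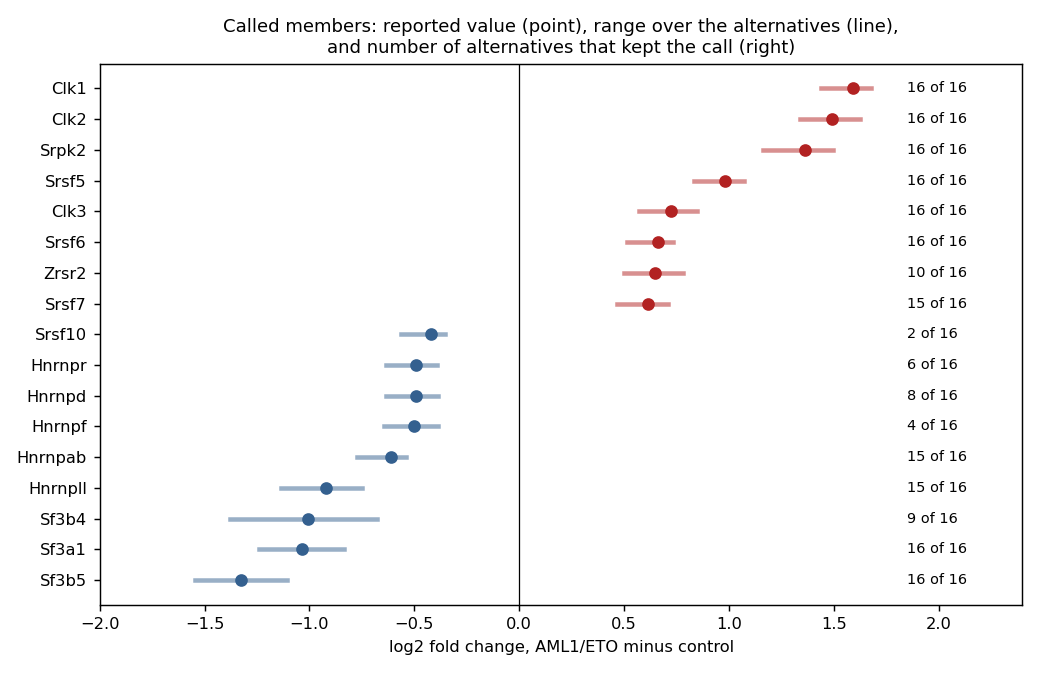
Log2 fold change of the 17 called members as reported (point) and its range over 16 alternatives (line), with the number of alternatives that kept the call at the right. No line crosses 0; Srsf10 kept its call in 2 of 16 and Hnrnpf in 4 of 16.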

How the data were processed

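The authors deposited raw read counts per gene, 1 column for each of 8 libraries; no sample column was left unused. Reads were aligned with HISAT2 2.0.5 and counted with featureCounts 1.5.0-p3 on mm10, per the submitters' processing notes. The sources used here do not give the annotation release, the strand setting or how multi-mapping reads were counted. Groups came from the sample titles in the labels.

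The test was that of edgeR 4.0.16 (R 4.3.3): filterByExpr kept 15009 of 54532 genes, TMM factors scaled the libraries, and the two-sided quasi-likelihood test compared 3 AML1/ETO with 5 control libraries without covariates, with Benjamini-Hochberg adjustment at 0.05. The biological coefficient of variation was 72.6%. Standard errors came from the F statistic. Alternatives, 16 in all, used DESeq2 1.42.0, limma-voom 3.58.1, other scalings and filters, libraries left out and a replicate block. The procedure was also run on simulated negative binomial counts to which no extra zeros were added. That run cannot vouch for calls in libraries with many zeros. Coordinates, exonic length, transcript classes and shared 75-base stretches came from GENCODE M21 (GRCm38); promoter windows from RefSeq (GRCm38.p6).

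Members and lists were chosen with earlier results of these data known. Members named in full passed the test, had 1 of the 3 largest changes of their subgroup, or were U2af1, Srsf2, Sf3b1 or Zrsr2; others were chosen after their values were seen. Of other lists, up to 4 members with the smallest p are named; 1 gene is not reported here. Marker lists for neutrophils (sums of 0.0654 to 61.4 CPM in AML1/ETO against 118 to 283 CPM), monocytes (37.0 to 59.9 against 138 to 249.9), B cells (5.30 to 10.8 against 76.4 to 222), T and NK cells (5.22 to 7.59 against 60.9 to 115) and erythroid cells (12.2 to 71.1 against 2.98 to 41.5) were also summed.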

Additional observations from a re-analysis of the deposited data

Results flagged for a closer look

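In 3 of 50 tested members 1 control library stood apart from the other 4 by Dixon's test at its 95% critical value, where chance alone gives about 1 in 20 groups. Hnrnpc was at 477.7 CPM in control library 3, against 390.1 to 405 CPM in the others. Zrsr2 was at 82.28 CPM in control library 2, against 61.15 to 63.4 CPM. U2af1 was at 93.81 CPM in control library 1, against 145.8 to 161 CPM.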

How the results depend on the processing

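Over 16 alternatives none of the 17 called members changed direction, and 8 kept their call in each. The number of members that fell, 9 as reported, was 4 with DESeq2 size factors, 17 with library totals alone and 5 without a filter; leaving out 1 library at a time gave 4 to 9, and 7 to 10 for the 8 that rose. The numbers over all genes were 1385 to 1752 risers and 1537 to 2287 fallers in those fits. Labels number replicates in both groups. Between libraries of the same number, deviations from the group mean correlated by 0.04, −0.04 and 0.03. With many zeros in these libraries, such low values cannot settle whether the numbers mark pairs. With the replicate number as a block, 951 genes rose and 1098 fell, against 1734 and 2128, and 6 members rose and 3 fell. The block kept 9 of the 17 calls and none of the 5 hnRNP calls; among those lost were Srsf7 (adjusted p = 0.0764), Hnrnpab (0.0586), Hnrnpll (0.131) and Zrsr2 (0.148). The block fits a term for each replicate number and leaves few degrees of freedom. Control libraries 4 and 5 have no AML1/ETO library of their number, so they add nothing to the estimated difference. The cause of the lost calls was not tested.

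Of the 33 members that did not pass, 12 passed in at least 1 alternative and 11 changed sign; 10 of the 11 had reported log2 fold changes between −0.04 and 0.13, and Zrsr1 0.34. With library totals alone, which lowers all genes, the values were −0.068 for Srsf3, −0.090 for Srsf1, −0.071 for Srpk1, −0.019 for Hnrnpa3, −0.030 for Hnrnph3, −0.038 for Hnrnph2, −0.076 for Hnrnpul2, −0.10 for Hnrnph1 and −0.13 for Sf3b1. Without both first libraries they were −0.016 for Srsf3, −0.0023 for Hnrnpa3, −0.091 for Hnrnph1, −0.21 for Sf3b1 and −0.0033 for Zrsr1. With limma-voom they were −0.018 for Hnrnph1 and −0.11 for Sf3b1. Leaving out 1 library at a time gave −0.22 to 0.245 for Srsf1, −0.048 to 0.114 for Hnrnph1, −0.16 to 0.1165 for Sf3b1 and −0.147 to 0.071 for U2af2. U2af2 was at 0.0278 with DESeq2 and with its size factors, and at 0.0051 with the 1 CPM filter. Depth limits Srsf12, Srpk3 and U2af1l4, which had few or no reads.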
